A study of Mus musculus with 2 samples.

Results

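The 10 heat shock chaperones described here were Hspa1a, Hspa1b, Hsph1, Dnajb1, Dnaja1, Hsp90aa1, Hsp90ab1, Hspa8, Hspe1 and Hspd1. They were taken by symbol from the 55487 genes of the expression library, and each symbol matched 1 gene ID. CD4 T cells came from visceral adipose tissue (34000 sorted) and spleen (32000 sorted) of C57BL/6 Foxp3.Cre-YFP mice, labelled Treg-bmal1KO or Treg-bmal1WT and taken at zeitgeber time (ZT) 12 or 0. All mice carried the Cre, which is expressed from Foxp3 and so acts in regulatory T cells (Tregs). Animals lived under a reversed light cycle, and the sources used here give no age. Cells were tagged with antibodies that carry a DNA barcode (hashtags), pooled and run as 1 single-cell expression library with 1 hashtag library. Of 10 listed hashtags, 6 carried more than 1000 counts, fewer than the combinations of tissue, genotype and time. The labels do not tie a hashtag to a tissue, genotype or time. Each hashtag therefore has its own values below, no hashtag is a replicate of another, and no test between hashtags was possible.

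Heat shock proteins are chaperones that fold, refold or hold other proteins. Hspa1a and Hspa1b are neighbouring, nearly identical genes for inducible Hsp70, and Hspa8 encodes the constitutive Hsp70 (Hsc70). Dnajb1 and Dnaja1 encode Hsp40 co-chaperones that deliver clients to Hsp70, and Hsph1 encodes Hsp110, a nucleotide exchange factor of Hsp70. Hsp90aa1 and Hsp90ab1 encode the inducible and the constitutive cytosolic Hsp90. Hspd1 and Hspe1 encode Hsp60 and Hsp10, the 2 parts of the mitochondrial chaperonin. Under heat or proteotoxic stress, the factor HSF1 binds repeated nGAAn units and switches on the inducible genes within minutes. The same genes can be switched on while tissue is cut, digested and sorted, as can the immediate early genes (Fos, Jun, Dusp1 and others). Daily swings of body temperature also move HSF1 targets, and cold raises the RNA-binding protein genes Cirbp and Rbm3.

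The promoters were read for HSF1-type units because Hspa1a, Hspa1b and Hspe1 carried the largest opposing patterns of the levels described below, a choice made after the levels were seen. The table of RefSeq promoters used here (GRCm38.p6, 250 bases before to 50 after each start) held 7 of the 10 genes, while Hspa8, Hsp90aa1 and Hsp90ab1 are named only. Hspa1a lies at chr17:34969359-34972156 and Hspa1b at chr17:34956429-34959238, both on the minus strand, with starts 12918 bases apart. Their promoters (chr17:34972107-34972406 and chr17:34959189-34959488) were identical at 296 of 300 bases. Hspe1 lies at chr1:55088148-55091317 and Hspd1 at chr1:55077833-55088243, on opposite strands. The promoter of 1 Hspd1 start (chr1:55087883-55088182) overlaps the Hspe1 promoter by 285 bases. Hspd1 has another start, with the window chr1:55088194-55088493. Capitals mark the units searched on both strands, the inverted pairs GAANNTTC and TTCNNGAA and the overlapping runs of 3 units, GAANNTTCNNGAA and TTCNNGAANNTTC.
Hspa1a: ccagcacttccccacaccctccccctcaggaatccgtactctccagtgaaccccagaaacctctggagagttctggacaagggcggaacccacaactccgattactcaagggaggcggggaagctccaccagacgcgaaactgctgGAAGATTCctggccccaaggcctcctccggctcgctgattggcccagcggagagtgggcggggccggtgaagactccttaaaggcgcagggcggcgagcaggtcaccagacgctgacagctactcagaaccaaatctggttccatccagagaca
Hspa1b: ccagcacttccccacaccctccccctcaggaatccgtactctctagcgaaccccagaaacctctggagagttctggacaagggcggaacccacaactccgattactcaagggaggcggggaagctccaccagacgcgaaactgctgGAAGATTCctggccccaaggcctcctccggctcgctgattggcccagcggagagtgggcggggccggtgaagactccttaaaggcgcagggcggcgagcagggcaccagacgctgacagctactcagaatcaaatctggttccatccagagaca
Hspe1 (chr1:55087898-55088197, plus strand): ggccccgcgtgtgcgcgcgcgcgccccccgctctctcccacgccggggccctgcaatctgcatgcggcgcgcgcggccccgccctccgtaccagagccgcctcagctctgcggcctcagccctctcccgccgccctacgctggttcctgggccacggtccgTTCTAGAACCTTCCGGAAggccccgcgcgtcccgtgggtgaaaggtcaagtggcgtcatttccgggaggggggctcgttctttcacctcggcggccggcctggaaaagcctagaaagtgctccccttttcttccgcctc
Hsph1 (chr5:149636266-149636565, minus strand): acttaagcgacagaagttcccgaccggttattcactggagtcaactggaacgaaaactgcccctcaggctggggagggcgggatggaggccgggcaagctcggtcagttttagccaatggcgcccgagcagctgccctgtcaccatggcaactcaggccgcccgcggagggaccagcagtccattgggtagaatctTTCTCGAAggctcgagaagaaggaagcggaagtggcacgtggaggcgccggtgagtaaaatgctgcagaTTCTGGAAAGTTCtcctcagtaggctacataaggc
Hspa1a and Hspa1b each held 1 GAANNTTC, at -104 to -97 from the start. Hspe1 held both runs of 3 units, from -89 to -72, and the overlapping Hspd1 promoter held the same bases on the other strand. The window of the other Hspd1 start held no unit searched. Hsph1 held TTCNNGAANNTTC at 15 to 27 after the start. Dnaja1 held 1 GAANNTTC at -124 to -117 from 1 of its starts and no unit at its other starts. The Dnajb1 windows held none of these letters. Among 32851 promoters of the same length, 0.603% held either run of 3 units and 15.1% held either inverted pair. A match is a description of letters and not a measured binding site.

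The expression library held 22960 barcodes with 96923402 UMIs (unique molecular counts) and a median of 3469 UMIs per barcode. After hashtag calls and cell filters, 13599 single-hashtag cells were kept, of which 13006 passed a T cell gate with a median of 3159 UMIs. Hashtags 1 to 6 held 2833, 1541, 1931, 1307, 3375 and 2019 T cells, with median UMIs of 2780, 2852, 2829, 2819, 3462 and 3770. T cells were sorted into gates by marker UMIs, and the gates are named by those markers. The ST2 Treg gate (Il1rl1, which encodes ST2, with a Treg gene) had 681 CPM (UMIs scaled to a common total) of Il1rl1 and 1421 CPM of Areg. Foxp3 was at 55.1 CPM there, against 357 CPM in the other Foxp3 gate. Entry needed 1 UMI of Foxp3, Ikzf2, Ctla4 or Il2ra, and Ikzf2 was at 300 CPM in the Th1 gate too. Cells with Il1rl1 that are not Tregs can therefore enter, and ST2 Treg cells below means cells of this gate. The Th1 gate, the naive gate and the others all carried Cd4 (134 to 192 CPM), and Cd8a was at 0.333 CPM in the Th1 gate. The naive gate had 322 CPM of Ccr7. Cells of 1 gate were not alike in all hashtags. In the ST2 Treg gate, Areg was at 1557, 1840, 923, 1524 and 67.2 CPM in hashtags 1 to 5, and in the Th1 gate Ifng was at 186, 229, 103, 174, 32.9 and 38.4 CPM in hashtags 1 to 6. Hashtag 6 held 49 cells in the ST2 Treg gate, under the minimum of 50, and gives no value there. CPM, counts per 1000000 UMIs of a summed class, count 3′ ends and not length, and levels of different genes are not compared. Intervals are exact 95% intervals that cover counting error only.

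In the Th1 gate, the 2 inducible Hsp70 genes separated the hashtags most of the 10 chaperones. In this gate, the largest with cells in all 6 hashtags, Hspa1a was at 53.8, 90.4, 70.6, 51.6, 13.2 and 22.5 CPM in hashtags 1 to 6. Hashtags 5 and 6 were the lowest, with intervals of 9.64 to 17.6 and 16.6 to 29.8 CPM, and hashtag 2 was the highest, with 76.7 to 106 CPM. The highest level was 6.82-fold the lowest, and 14 of 15 pairs of hashtags had a log2 ratio whose interval lay off 0, as did 18.2% of all pairs over all genes at 10 CPM or more. Hspa1b was at 81.7, 122, 99.6, 103, 40.4 and 46.3 CPM in the same cells, a 3.01-fold spread with 12 of 15 pairs apart. Hashtags 5 and 6 were again the 2 lowest, and their Hspa1b levels did not differ beyond counting error (log2 ratio of hashtag 5 over hashtag 6 -0.20, interval -0.58 to 0.19). Hspa1a and Hspa1b share most of their sequence, and how the authors' counting treated reads that match both is not stated in the labels or headers. Both the division between the 2 genes and their total are uncertain for that reason.

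**Figure D1:**
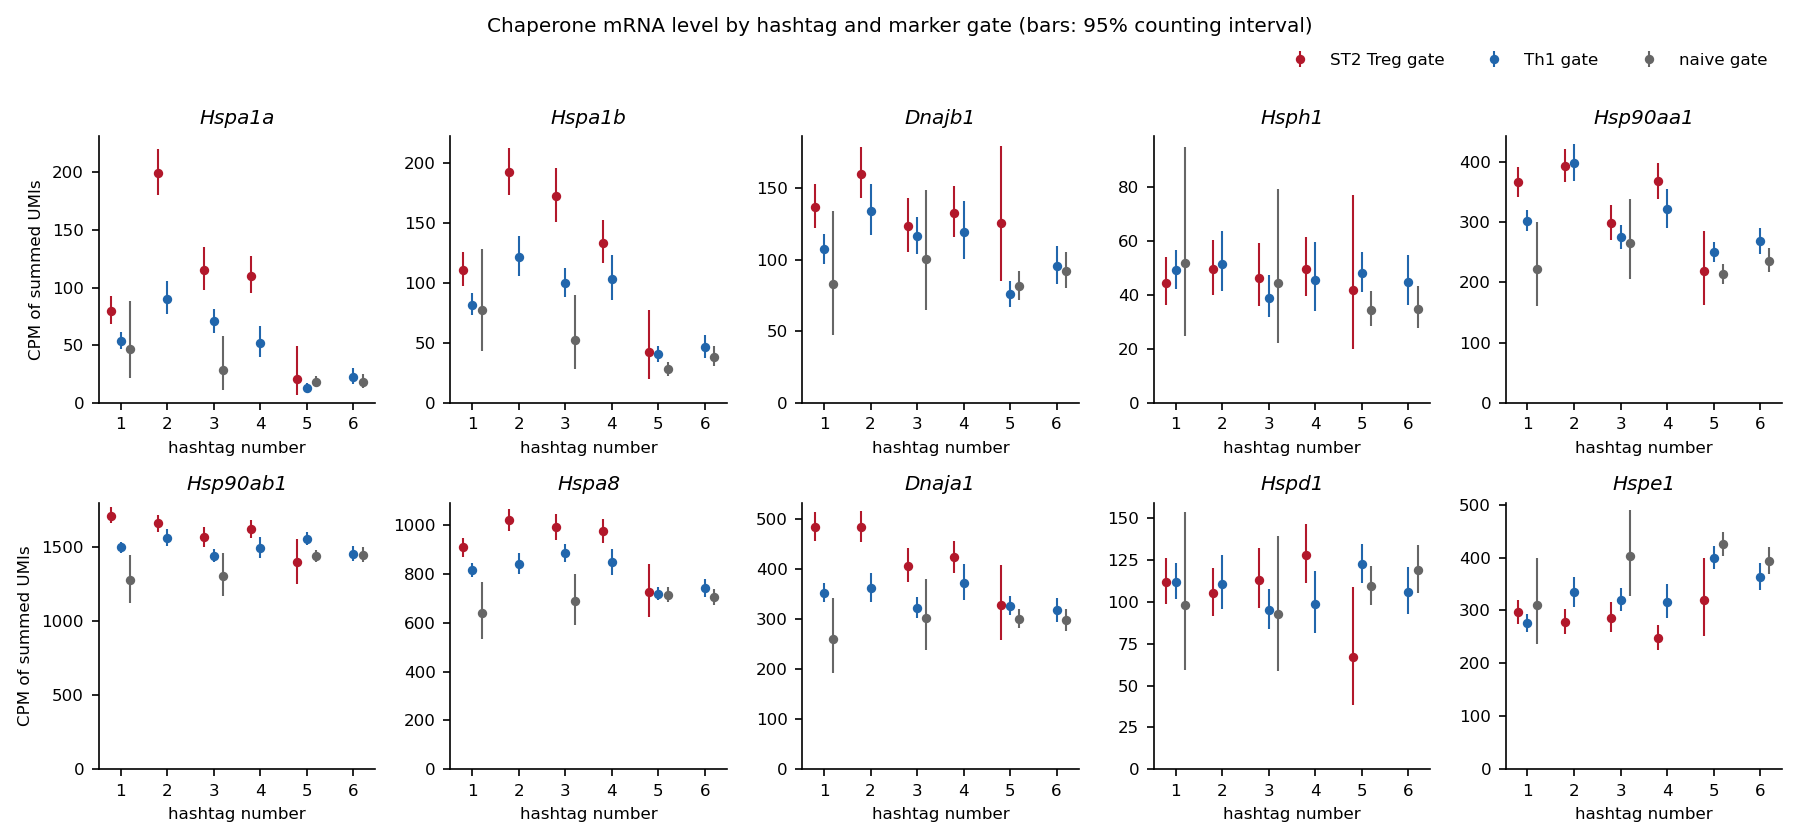
Level of each chaperone (CPM of summed UMIs, y axis from 0) by hashtag number in the ST2 Treg, Th1 and naive gates, with 95% exact counting intervals. Hspa1a and Hspa1b were lowest in hashtags 5 and 6, where Hspe1 stood highest in the Th1 gate. Hsph1 showed no such step in the Th1 gate and was lower in hashtags 5 and 6 of the naive gate, within counting error.

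In the ST2 Treg gate hashtag 2 was again the highest and hashtag 5 the lowest for both genes. Hspa1a was at 79.9, 199.7, 115, 110.4 and 21.0 CPM in hashtags 1 to 5, and hashtag 5 rested on 64 cells with an interval of 6.81 to 49.0 CPM. Hspa1b was at 111, 192, 172, 133 and 41.97 CPM there. In the remaining T cells that met no marker rule, Hspa1a was at 57.4, 94.7, 55.9, 90.3, 15.1 and 24.3 CPM, so that the low level of hashtags 5 and 6 was seen in this gate too. The naive gate had at least 50 cells in hashtags 1, 3, 5 and 6, with Hspa1a at 46.6, 28.2, 18.2 and 18.3 CPM. Only 56 and 66 naive cells stood behind hashtags 1 and 3. The lowest Hspa1a level of any class was 4.78 CPM, in the other Foxp3 gate of hashtag 6, from 1 UMI (0.121 to 26.7 CPM). All hashtags shared 1 pool of droplets, and free RNA in it was not measured.

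Dnajb1 and Hsp90aa1 followed with smaller spreads. Dnajb1 was at 107, 134, 116, 119, 75.8 and 95.5 CPM in the Th1 gate, 1.77-fold between hashtags 2 and 5, and its level in hashtag 6 lay between the others and hashtag 5. Hsp90aa1 was at 302, 398, 275, 321, 249.8 and 268 CPM, 1.59-fold between the same 2 hashtags. With the Hsp70 pair, these made 4 of 10 chaperones past a 1.5-fold spread in the Th1 gate, where 44.6% of 7541 genes at 10 CPM or more were past it. The count is near that share, and the median spread was 1.38-fold for the chaperones against 1.46-fold for all genes, so the group as a whole did not stand apart. Without hashtag 5, 2 of 10 were past the fold. Counts in the ST2 Treg gate (4 of 10, against 61.1% of all genes), in the remaining T cells (3 of 10, 59.6%), in the naive (3 of 10, 64.6%), other Foxp3 (6 of 10, 79.1%) and cycling gates (4 of 10, 43.6%) and in all T cells together (4 of 10, 33.5%) were near or below their background.

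Hsph1, an inducible gene in many cell types, did not follow Hspa1a in the Th1 gate. It was at 49.1, 51.7, 39.1, 45.6, 48.1 and 44.9 CPM in the Th1 gate, and none of 15 pairs of hashtags differed beyond counting error. Its log2 ratio of hashtag 2 over hashtag 5 was 0.11, with an interval of -0.28 to 0.48 that excludes the ratio of 2.77 seen for Hspa1a. The ST2 Treg gate gave 44.6, 49.5, 46.5, 49.7 and 41.97 CPM of Hsph1. In the naive gate Hsph1 was at 51.8, 44.4, 34.5 and 34.9 CPM in hashtags 1, 3, 5 and 6, lowest in hashtags 5 and 6 like Hspa1a. Its spread there was 1.57-fold, with 10 and 11 UMIs in hashtags 1 and 3 and 0 of 6 pairs apart. In the other Foxp3 gate it was instead highest in hashtag 6 (47.8 CPM) and lowest in hashtag 3 (28.8 CPM). In cycling cells Hsph1 did vary, at 32.9, 33.3 and 73.0 CPM in hashtags 1 to 3, a 2.21-fold spread above the 1.53-fold of Hspa1b and close to the 2.25-fold of Hspa1a there. The intervals of its highest and lowest level, in hashtags 3 and 1, were 50.3 to 103 and 22.2 to 47.0 CPM. The constitutive members varied least. Hsp90ab1 was at 1497, 1563, 1442, 1493, 1556 and 1453 CPM in the Th1 gate, a 1.08-fold spread, and Dnaja1 had a 1.18-fold spread (317 to 372 CPM). Hspa8 was at 818, 842, 886, 850.1, 719.7 and 741 CPM, lowest in hashtags 5 and 6, with a 1.23-fold spread and 9 of 15 pairs apart.

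Hspe1 ran the opposite way to the Hsp70 pair. It was at 276, 334, 320.1, 316, 399.8 and 364 CPM in the Th1 gate, with hashtags 5 and 6 the 2 highest and 11 of 15 pairs apart. Its partner Hspd1 was at 112, 111, 95.4, 98.8, 123 and 106 CPM, and 3 of 15 pairs were apart. Over 28 classes of hashtag and gate with at least 50 cells, the log2 level of Hspa1a had a Pearson correlation of 0.90 with Hspa1b, -0.04 with Hsph1 and -0.78 with Hspe1. Hspe1 and Hspd1 had a correlation of 0.00, although 1 Hspd1 promoter overlaps the Hspe1 promoter by 285 bases. These correlations are descriptions over classes that share hashtags, pool and depth. Cirbp and Rbm3 did not run opposite to Hspa1a. In the Th1 gate Cirbp was at 150.03, 144, 151, 150.4, 85.6 and 103 CPM and Rbm3 at 843, 798, 917, 866, 527 and 678 CPM, lowest in hashtags 5 and 6 like Hspa1a.

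Immediate early genes as a list were also lowest in hashtags 5 and 6. Of 14 listed genes, 13 reached 10 CPM, and 13 of 13 were past a 1.5-fold spread in the Th1 gate, with a median spread of 3.67-fold. Summed over the list, they stood at 6171, 6487, 4792, 5869, 1858 and 1786 CPM in hashtags 1 to 6 of the Th1 gate, and at 16287, 20544, 13411, 20047 and 2107 CPM in hashtags 1 to 5 of the ST2 Treg gate. Fos, a subunit of the AP-1 transcription factor, was at 362, 392, 279, 366, 50.7 and 47.3 CPM in the Th1 gate, and Dusp1, a phosphatase that acts on MAP kinases, at 419, 466, 322, 401, 77.6 and 82.8 CPM. Hashtags 5 and 6 were lowest for both. Fos (8.25-fold) and Fosb (7.03-fold) spanned more than Hspa1a in the Th1 gate, and the other listed genes less. Egr1, a zinc finger transcription factor, had a 1.56-fold spread, with 60.7 CPM in hashtag 5 above 53.3 CPM in hashtag 4. Whether digestion, tissue, time or genotype set the Hspa1a pattern was not tested, since no hashtag could be assigned. Summed non-T markers (B cell, macrophage, endothelial and stromal, 13 genes) ran from 66.7 to 89.4 CPM in the Th1 gate with no step at hashtags 5 and 6, and Ms4a1 was at 0 UMIs in hashtag 4 alone. The T cell gate admitted at most 2 UMIs of these genes per cell, which capped their level. That level cannot show how much RNA of other cells was present. The part of these markers in the Hspa1a pattern was not tested. Per2, a clock gene that also responds to heat, did not reach 10 CPM.

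**Figure D2:**
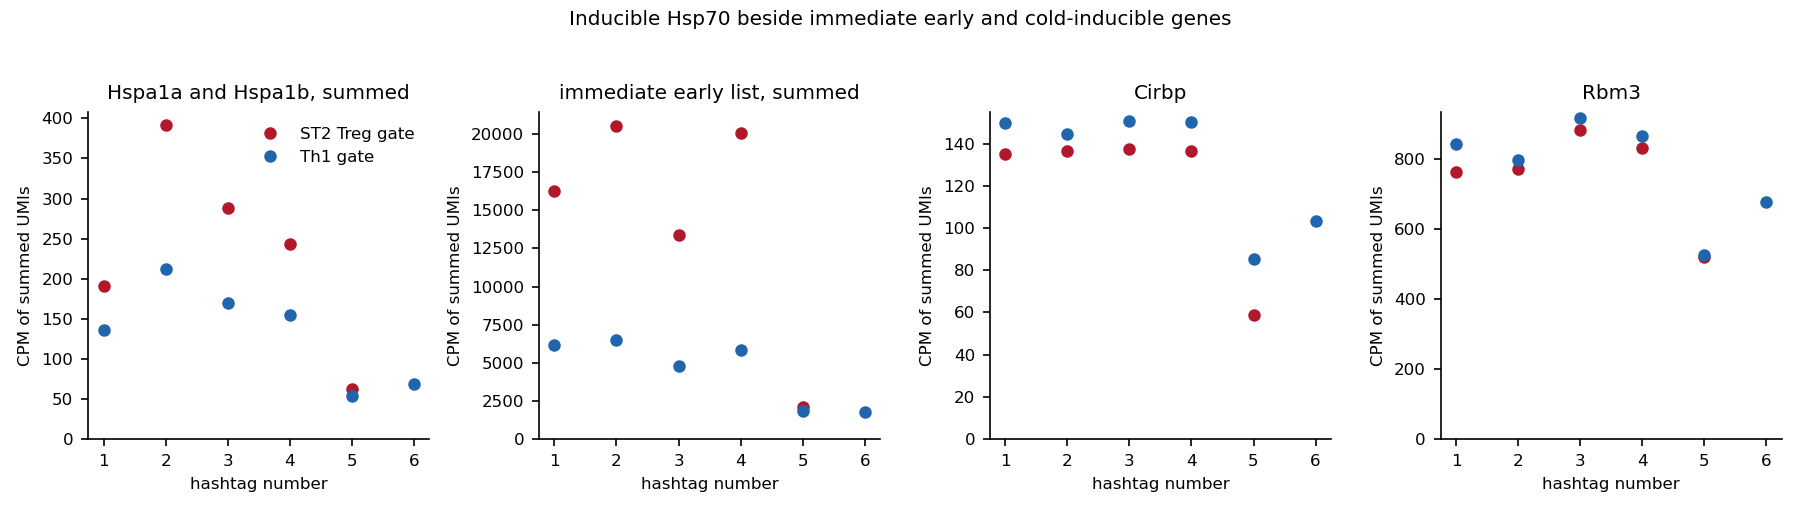
Summed Hspa1a and Hspa1b, the summed immediate early list, Cirbp and Rbm3 (CPM of summed UMIs, y axes from 0) by hashtag number, in the ST2 Treg gate (no value in hashtag 6) and the Th1 gate. All 4 panels have hashtags 5 and 6 lowest in the Th1 gate, and the 2 gates lie apart for the immediate early list in hashtags 1 to 4.

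Genes linked to HSF1 showed the pattern in part. Of 19 co-chaperones and regulators at 10 CPM or more, 4 were past a 1.5-fold spread in the Th1 gate. Bag3, a partner of Hsp70 and a known HSF1 target, was at 11.4, 20.6, 16.2, 18.0, 7.15 and 6.55 CPM in hashtags 1 to 6, with hashtags 5 and 6 lowest. Dnajb4 and Hsbp1, which encode an Hsp40 and a protein that binds HSF1, were instead highest in hashtags 6 and 5, at 25.3 and 112 CPM. Among chaperones of other compartments, 1 of 8 subunits of the cytosolic chaperonin TRiC, 2 of 7 mitochondrial and 2 of 10 endoplasmic reticulum (ER) chaperones were past the fold. These shares are below the 44.6% of all genes.

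The share of cells with a UMI showed the same split of hashtags. After each cell was thinned to 1500 UMIs, Hspa1a or Hspa1b was detected in 15.2%, 18.1%, 18.3%, 15.4%, 8.06% and 9.47% of Th1 gate cells in hashtags 1 to 6. The unthinned shares for Hspa1a or Hspa1b, at median depths from 2575 to 3593.5 UMIs, were 24.1%, 28.3%, 29.9%, 23.9%, 16.7% and 20.6%. Thinning left out 352, 185, 291, 163, 147 and 56 T cells, over all gates, that were shallower. In the ST2 Treg gate the shares for Hspa1a or Hspa1b were 19.8%, 27.5%, 22.2%, 19.0% and 5.0% in hashtags 1 to 5, and in the naive gate 9.80%, 10.9%, 6.49% and 8.67% in hashtags 1, 3, 5 and 6. No T cell type is known to lack these genes, so no background share could be set beside them.

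Hspa1a UMIs were concentrated in few cells in hashtags 1 to 4. The richest 1% of T cells held 39.97%, 30.9%, 26.9%, 31.9%, 26.1% and 23.6% of Hspa1a UMIs in hashtags 1 to 6. In hashtag 5, 188 UMIs lay in 172 cells, and in hashtag 6, 178 UMIs lay in 156 cells. Their shares therefore follow largely from sparse counts and show no concentration. Such a share depends on the mean level and is not compared between hashtags. Among T cells, 25, 37, 15, 15, 0 and 0 cells held 5 or more Hspa1a UMIs in hashtags 1 to 6, and the richest cell of each held 42, 30, 15, 17, 4 and 3. Cells with an Hspa1a UMI also held Hspa1b more often than cells without one in hashtags 1 to 4, and not beyond counting error in hashtags 5 and 6. After thinning, 31.0% against 10.2% of them had an Hspa1b UMI in hashtag 1, 41.3% against 11.9% in hashtag 2, 35.6% against 11.7% in hashtag 3 and 43.5% against 11.2% in hashtag 4. In hashtag 5 the shares were 5.63% (4 of 71 cells) against 5.45%, and in hashtag 6 8.06% (5 of 62 cells) against 5.84%. A part of the joint detection could come from reads divided between the near-identical copies, which was not tested. Dnajb1 was found in 17.3% against 13.8%, 24.0% against 16.1%, 22.7% against 16.4%, 23.5% against 15.01%, 22.5% against 10.3% and 17.7% against 12.4% of cells in hashtags 1 to 6. Its share was higher in cells with an Hspa1a UMI in 6 of 6 hashtags, and the 2 intervals lay apart in hashtag 5 alone (13.5% to 34.0% against 9.23% to 11.4%).

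**Figure D3:**
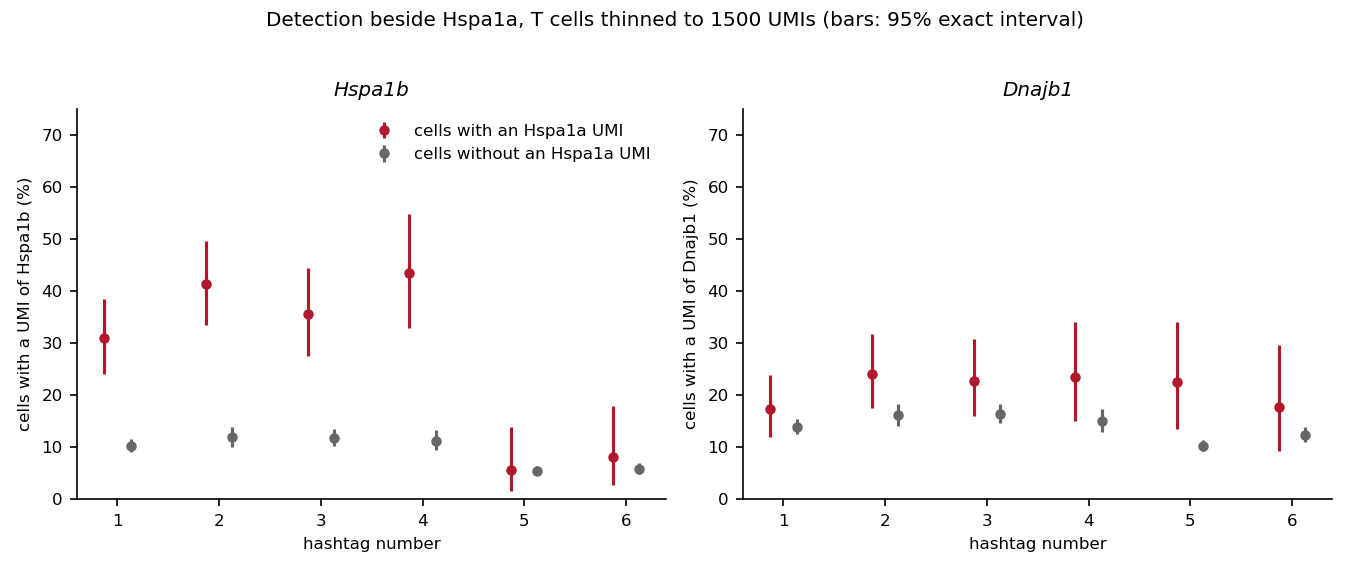
Share of T cells thinned to 1500 UMIs with a UMI of Hspa1b (left) or Dnajb1 (right), by hashtag number, in cells with and cells without an Hspa1a UMI, with exact 95% intervals. The Hspa1b shares of the 2 kinds of cell lie apart in hashtags 1 to 4 and together in hashtags 5 and 6.

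Over all T cells, those rich in inducible Hsp70 were rich in further cytosolic chaperones. Cells with 5 or more UMIs of Hspa1a and Hspa1b together numbered 53 of 2833 T cells in hashtag 1 (1.87%), 78 of 1541 in hashtag 2 (5.06%), 50 of 1931 in hashtag 3 (2.59%), 41 of 1307 in hashtag 4 (3.14%), 2 of 3375 in hashtag 5 (0.0593%) and 1 of 2019 in hashtag 6 (0.0495%). Their median depth was above that of all T cells, for example 3404.5 against 2852 UMIs in hashtag 2. Hsp90aa1 was at 831, 645, 466 and 725 CPM in these cells of hashtags 1 to 4, against 306, 363, 279 and 323 CPM in T cells of the same hashtag with no UMI of either gene. Dnajb1 was at 237, 265, 183 and 239.8 CPM, against 105, 119.9, 110.0 and 115 CPM. For both genes the interval of the ratio lay above 0 in all 4 hashtags, and likewise for Hsp90ab1 and Hspa8 with smaller ratios. Hsph1 was at 95.7 against 41.2 CPM in hashtag 1 and 103 against 37.9 CPM in hashtag 2, while in hashtags 3 and 4 its interval spanned 0. Dnaja1 and Hspe1 were likewise higher beyond counting error in hashtags 1 and 2 and not in hashtags 3 and 4. Hspd1 was higher in hashtag 1 alone (234 against 111 CPM), with an interval that spanned 0 in hashtags 2 to 4.

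Gate and immediate early genes differed along with these cells. In hashtag 2, 47 of the 78 Hsp70-rich cells were in the ST2 Treg gate, and Fos over all T cells was at 2446 CPM in the rich cells against 1271 CPM in cells without either gene. The cycling gate, with 104, 62, 58 and 43 cells in hashtags 1 to 4, held 6, 8, 4 and 3 of the rich cells. Cycling cells were deeper (medians of 5603 to 7727 UMIs) and higher in Hsp90aa1, Hspa8 and Hsp90ab1 than Th1 cells, as given below. Their part in the ratios over all T cells was not tested. Within the ST2 Treg gate (19, 47, 22 and 19 rich cells in hashtags 1 to 4), Hsp90aa1 was at 897, 718, 391 and 579 CPM in rich cells, against 326, 345, 277 and 336 CPM in cells without either gene. Dnajb1 was at 306, 344, 195 and 224 CPM there, against 126, 145, 116 and 122 CPM. For both genes the interval of the ratio lay above 0 in hashtags 1, 2 and 4 and spanned 0 in hashtag 3. Hsph1 was higher beyond counting error in hashtags 1 and 2 (142 against 39.7 CPM and 116 against 38.2 CPM) and not in hashtag 4 or in hashtag 3, where 1 UMI gave 12.2 against 43.7 CPM. Hspa8 was higher in hashtag 1 alone, and its interval spanned 0 in hashtags 2, 3 and 4. Hspe1 and Hspd1 went opposite ways in hashtags 1 and 3. In hashtag 1, Hspe1 (514 against 275 CPM) and Hspd1 (241 against 97.5 CPM) were higher in the rich cells, with intervals above 0. In hashtag 3, Hspe1 (183 against 320 CPM) and Hspd1 (36.6 against 122 CPM) were lower in the rich cells, with intervals below 0. For both genes the interval spanned 0 in hashtags 2 and 4. Fos was at 3382 against 2391 CPM in hashtag 2 and at 1307 against 1427 CPM in hashtag 3, where its interval spanned 0. In the Th1 gate of hashtags 1, 2 and 3 (17, 14 and 13 rich cells), Dnajb1 was higher beyond counting error in all 3 and Hsp90aa1 in hashtag 1. Over all T cells, Rbm3 did not differ beyond counting error in any of the 4 hashtags (869 against 868 CPM in hashtag 1). Cirbp was lower in the rich cells of hashtags 1 and 3, at 76.6 against 144 CPM and 95.9 against 149 CPM, with intervals that reached 0 in hashtags 2 and 4. Cells of 1 hashtag are not replicates, and the intervals do not cover variation between cells.

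**Figure D4:**
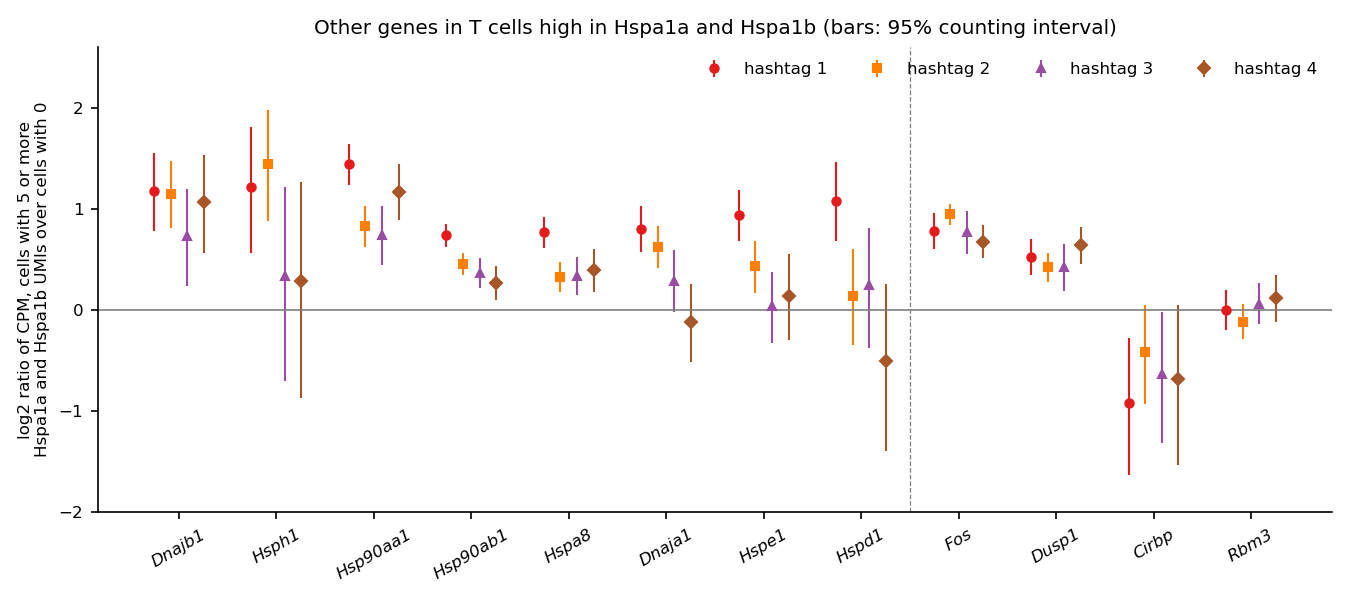
Log2 ratio of CPM in T cells with 5 or more UMIs of Hspa1a and Hspa1b together over T cells with none, for 8 chaperones (left of the dashed line) and 4 other genes, in hashtags 1 to 4, with exact 95% counting intervals. Dnajb1, Hsp90aa1, Hsp90ab1, Hspa8, Fos and Dusp1 lie above 0 in all 4 hashtags, and Rbm3 lies at 0.

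Comparing gates within a hashtag removes only those differences between hashtags that both gates share. ST2 Treg cells were set against naive cells in hashtags 1, 3 and 5 (1038 and 900 cells), where 3 of 10 chaperones had a median ratio of 1.5-fold or more, with 29.1% of 7919 genes higher and 9.21% lower by that fold. The count of 3 of 10 is near the 29.1% of all genes. Hspa1a had a median log2 ratio of 0.70 (0.33 to 1.94 over hashtags), Hspa1b of 0.65 and Dnajb1 of 0.65. Each was above 0 in 3 of 3 hashtags, and Hspe1 had a median of -0.41, below 0 in 3 of 3. Hspa1a had 9 and 7 UMIs in naive cells of hashtags 1 and 3. In ST2 Treg cells of hashtag 5 it had 5. Its level intervals in the 2 gates lay apart in hashtag 3 (98.2 to 135 against 11.3 to 58.2 CPM). They overlapped in hashtags 1 and 5. Ribosomal protein and mitochondrially encoded genes took 26.0% to 34.6% of the UMIs of ST2 Treg cells, against 40.9% to 44.4% in naive cells, and the median of all genes was 0.25. With totals taken without those genes, that median was -0.04, the share of higher among called genes went to 49.4% in place of 75.9%, and Hspa1a, Hspa1b and Dnajb1 had medians of 0.38, 0.46 and 0.36, under the fold. Hsph1, Hsp90aa1, Hsp90ab1 and Hspd1 then changed sign (-0.33, -0.14, -0.08 and -0.17), and Hspe1 at -0.59 was past the fold. Under the deposited totals, other Foxp3 cells against naive cells gave 1 of 10 (29.7% of genes higher, 4.50% lower), Hspa1b at 0.67, and Th1 cells against naive cells gave 0 of 10 (15.7% higher, 2.51% lower), Hspa1a being at 0.21. Without ribosomal and mitochondrial genes, the medians of all genes in these 2 comparisons were 0.08 in place of 0.32 and -0.01 in place of 0.21. Called genes were then higher in 63.7% in place of 86.8% and in 59.7% in place of 86.2%, and Hspa1b of other Foxp3 cells was at 0.42.

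Of the 10 chaperones, Hspa1a had the largest median ratio of ST2 Treg cells over Th1 cells of the same hashtag. This comparison, added after the cells had been gated because it uses 5 hashtags (2016 and 4093 cells), had little shift of all genes (median -0.01, or -0.07 without ribosomal and mitochondrial genes). Hspa1a had a median log2 ratio of 0.79 (0.57 to 1.14), above 0 in 5 of 5 hashtags. It was the 1 chaperone of 10 past the fold, with 7.97% of 7963 genes higher and 6.30% lower, a count near that share. In hashtag 5 Hspa1a rested on 5 UMIs of ST2 Treg cells, at 6.81 to 49.0 CPM against 9.64 to 17.6 CPM in Th1 cells. Hspa1a and Hspa1b summed were there at 63.0 CPM (35.2 to 104) against 53.5 CPM (46.1 to 61.8). The division between these 2 genes is uncertain, as said above. Hspa1b (0.44), Dnaja1 (0.33), Dnajb1 (0.25) and Hspa8 (0.16) were above 0 in 5 of 5 hashtags without reaching the fold. Hspa1a stayed at 0.79 under the other totals. Of called genes, 55.9% were higher with the deposited totals and 47.3% with the others. Hspe1 was at -0.26, below 0 in 4 of 5 hashtags. All 14 immediate early genes were higher past the fold in the same comparison, with a median of 1.79, and their part in the Hspa1a ratio was not tested. Other Foxp3 cells against Th1 cells gave 0 of 10 chaperones past the fold (11.2% of 8073 genes higher, 4.31% lower), with Hspa1a at 0.21. Of the remaining chaperone lists, ST2 Treg cells had 1 of 20 HSF1-linked genes higher than Th1 cells, Hsf2, a relative of HSF1, and no TRiC, mitochondrial or ER chaperone past the fold. Against naive cells, where 29.1% of all genes were higher and 9.21% lower, 5 of 10 ER chaperones were higher and 0 lower, Pdia3 (0.79), Hsp90b1 (0.77), Dnajb11 (0.75), Hspa5 (0.64) and Calr (0.63). Of 20 HSF1-linked genes 4 were higher and 1 lower, of 7 mitochondrial chaperones 1 was higher and 2 lower, and no TRiC subunit was past the fold. With totals taken without ribosomal and mitochondrial genes, where 18.6% of genes were higher and 19.1% lower, 1 of 10 ER chaperones was higher, 2 of 21 HSF1-linked genes were higher and 2 lower, and 2 of 7 mitochondrial chaperones were lower. The ER chaperone median went to 0.26 in place of 0.59, so the ER count depended on the totals.

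**Figure D5:**
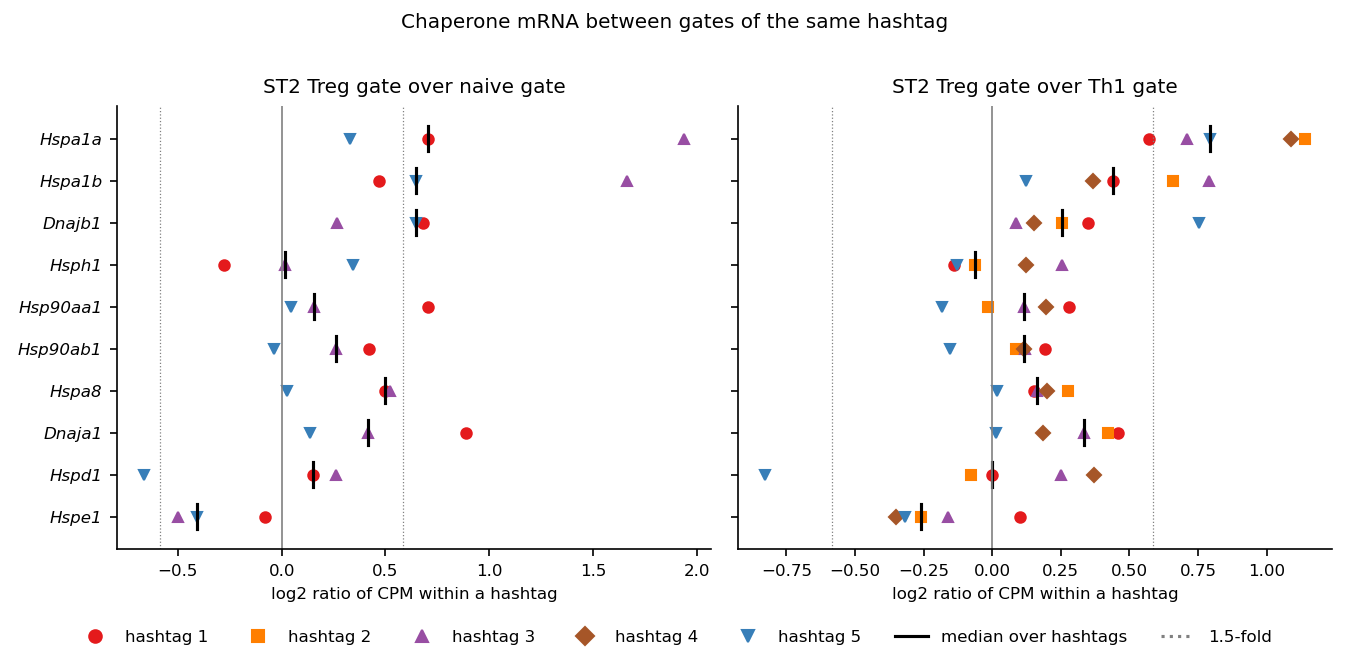
Log2 ratio of CPM within each hashtag for the 10 chaperones, ST2 Treg gate over naive gate (left, hashtags 1, 3 and 5) and over Th1 gate (right, hashtags 1 to 5), with the median as a bar and dotted lines at 1.5-fold. Hspa1a lies right of 0 in all hashtags of both panels, and Hspe1 has its median left of 0 in both. No counting intervals are drawn.

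Cycling cells exceeded Th1 cells of the same hashtag in Hspd1, Hsp90aa1, Hspa8 and Hsp90ab1. In hashtags 1, 2 and 3 (104, 62 and 58 cells), Hspd1 was at 211, 165 and 204 CPM in the cycling gate, against 112, 111 and 95.4 CPM in the Th1 gate. Hsp90aa1 was at 565, 525 and 522 CPM, against 302, 398 and 275 CPM, and Hspa8 at 1192, 1213 and 1226 CPM, against 818, 842 and 886 CPM. Hsp90ab1 was at 2238, 1764 and 2050 CPM, against 1497, 1563 and 1442 CPM. Each of these genes was higher in cycling cells in 3 of 3 hashtags. Dnajb1 was not, at 73.6, 96.02 and 111 CPM against 107, 134 and 116 CPM, and nor was Hspe1, at 407, 296 and 332 CPM against 276, 334 and 320.1 CPM. No share of all genes was set beside this comparison. Ribosomal protein and mitochondrially encoded genes took 26.5%, 24.0% and 26.6% of the UMIs of cycling cells, against 29.2%, 28.6% and 31.5% in Th1 cells. Their part in these differences was not tested.

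The genes whose level was most like that of the inducible members included Klf6, Junb and Fos of the immediate early list. Likeness was the Pearson correlation, over the 28 classes of hashtag and gate, with the mean standardised log2 level of Hspa1a, Hspa1b, Hsph1 and Dnajb1, among 5355 genes at 20 CPM or more. The highest were Neat1 and Klf6 (0.90 each), Cd69, Nfkbid and Junb (0.89 each), Fos (0.88), Coq10b, Atf4 and Fosl2 (0.87 each) and Mxd1 (0.86). Hsph1 itself had 0.39, Hsp90aa1 0.58, Hspa8 0.56, Dnaja1 0.70 and Hspe1 -0.84. Klf6, a zinc finger transcription factor, was at 443, 648, 494, 564, 110 and 117 CPM in the Th1 gate. Classes share hashtags, so these values describe the data and carry no test.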

How the data were processed

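One gene expression library and 1 hashtag library of the same pooled cells were analysed. The deposited values are unnormalised counts of UMIs, made by the authors with cellranger 4.0.0 per the file headers. Cell Ranger 6.0, Seurat 3 and mm10 are named in the submitters' processing notes, a conflict the values do not settle. HTODemux in Seurat 5.3.0 and R 4.3.3 (positive quantile 0.99) called hashtags on 22952 barcodes, giving 14879 singlets, 5804 doublets and 2269 barcodes without a call. Pairs of cells with 1 hashtag are not seen by it. The cell filter asked for 500 genes or more and a mitochondrial share below 10%. T cells had at least 1 T cell receptor or CD3 UMI and at most 2 non-T UMIs. Gates were applied in order: cycling, ST2 Treg (Il1rl1 with Foxp3, Ikzf2, Ctla4 or Il2ra), other Foxp3, naive (3 of 6 naive genes), Th1 (2 or more Th1 genes) and the rest. Gate genes are not results. Python 3.11.15 was used (numpy 2.4.6, scipy 1.17.1, pandas 2.3.3).

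UMI counts were summed per hashtag and gate (at least 50 cells) and scaled to CPM. Log2 ratios used a prior count of 0.5, and a gene at 10 CPM or more was called at 1.5-fold. Levels carry exact Poisson intervals, shares exact Clopper-Pearson intervals and ratios exact conditional binomial intervals, all at 95%. No p-values were computed, since hashtags of unknown origin are no replicates. The code was tested on simulated counts. Genes named are the 10 chaperones, members of the stated lists and the 10 genes most like the inducible ones. Cells with 5 or more Hspa1a and Hspa1b UMIs, the cycling cells, joint detection and the gene lists under other totals were examined after the levels were seen. The chaperones and lists were chosen with earlier results of these data known. Alternatives were another hashtag rule, stricter cells and gates, other totals, fewer high-UMI cells, thinning, equal weight of cells and single hashtags left out. Values of some genes in these lists are not reported here.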

Additional observations from a re-analysis of the deposited data

Results flagged for a closer look

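Inducible Hsp70 was also found in barcodes that enter no comparison, above the level that a count of 0 allows. Hspa1a was at 73.2 CPM and Hspa1b at 94.0 CPM in 5723 kept barcodes called as hashtag doublets, and at 27.5 and 63.5 CPM in 1909 kept barcodes without a hashtag call. Kept singlets outside the T cell gate (593 barcodes) had 93.4 CPM of Hspa1a and 87.0 CPM of Hspa1b.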

How the results depend on the processing

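No paired analysis was possible because the labels give hashtags no replicate numbers and no groups. The summed level of Hspa1a, Hspa1b, Hsph1 and Dnajb1 in the Th1 gate (log2 of highest over lowest hashtag 1.17) ran from 1.03 to 1.25 over its alternatives. The difference in thinned share of cells with a UMI of Hspa1a, Hspa1b or Dnajb1 (15.5 percentage points) ran from 11.99 to 17.1. That share counts Dnajb1 too, unlike the thinned shares for Hspa1a or Hspa1b given above. Of the chaperones past a 1.5-fold spread in the Th1 gate, 2 to 4 were past it when 1 hashtag was dropped. ST2 Treg against naive cells had 3 chaperones past the fold, but 1 without ribosomal and mitochondrial totals, 1 after thinning to 1500 UMIs, 0 with each cell weighted equally and 1 to 3 when 1 hashtag was dropped. Other Foxp3 against naive cells had 1, but 0 without those totals and 0 to 2 when 1 hashtag was dropped. Th1 against naive cells had 0, but 1 with stricter gates and 1 after thinning. Hspa1b in other Foxp3 against naive cells turned to -0.087, against 0.67, with the stricter cell filter. The causes were not tested. Stricter gates left too few cells for ST2 Treg or other Foxp3 against naive. Of 961 further values, 796 moved by less than their counting error, 164 moved by more and 1 was the reversal above. Depth limits the naive gates of hashtags 1 and 3 (56 and 66 cells) and the ST2 Treg gate of hashtag 5 (64 cells).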

Other observations

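Hspb1, which encodes the small heat shock protein Hsp27, was found mainly in barcodes outside the T cell gate. It was at 416 CPM (395 to 438) in those 593 barcodes, against 6.03 CPM (5.33 to 6.79) in 13006 T cells. Hsph1 and Hspe1 ran the other way, at 33.1 and 219 CPM outside the gate, against 44.2 and 347 CPM in T cells. Dnajb1, Dnaja1, Hsp90aa1, Hsp90ab1, Hspa8 and Hspd1 were lower outside the gate too. These levels are pooled over hashtags. Hsph1 was higher outside the gate in hashtags 5 and 6, at 70.3 and 48.7 CPM against 44.6 and 40.6 CPM in T cells.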
